A study of Mus musculus with 2 samples.

Results

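The 10 genes Apob, Mttp, Fabp1, Fabp2, Fabp6, Cd36, Dgat1, Dgat2, Mogat2 and Plin2 were taken as a named list of fat absorption and chylomicron genes, out of 21755 protein-coding genes of chromosomes 1 to 19 and X in GENCODE M21. CTCF peaks were described whose summit lay in the gene body or within 20 kb of any of the gene's transcription start sites (TSSs), on the mouse assembly mm10. The windows were 40.001 to 127 kb long and did not share a summit. Of the 73465 peaks of the optimal list, which the authors cut by the irreproducible discovery rate (IDR, scored from the order of peaks in repeat experiments), 31 had their summit in these windows.

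Newborn mice live on fat-rich milk, and the enterocytes of the gut take it up in a fixed series of steps. Fatty acids enter in part through the membrane protein Cd36 and are carried by fatty acid binding proteins. Monoacylglycerol is rebuilt to triglyceride by Mogat2, Dgat1 and Dgat2. Mttp loads the triglyceride onto Apob to form chylomicrons, while Plin2 coats the lipid droplets in which the rest is stored. CTCF is a DNA-binding protein with many zinc fingers that recognises a long, directional sequence motif, and it is known for holding the ends of chromatin loops together with cohesin.

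The study mapped CTCF by chromatin immunoprecipitation and sequencing in whole intestine of B6NCrl mice at postnatal day 0, with no treatment and no allele named, in 1 group of 2 replicates. Each was made from powdered intestines pooled over several dissections, the sex was not collected, and the labels call the replicates biological but give both the same biosample and donor record, so their spread may be technical. Each replicate's own list held 300000 peaks, most of them weak, and the lists hold no read counts, so depth is unknown and no limit can be put on what a missing peak means. CTCF peaks carry no measure of RNA, so the tissue label could not be checked against marker genes, and peaks in whole intestine cannot be assigned to enterocytes or to any other cell type. Signal is the authors' enrichment value for a peak, compared here only inside 1 list, while ranks (1 is the strongest) compare the replicates.

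Of the 10 genes 9 had at least 1 optimal summit, and Fabp1 had none. By the same rule 82.3% of all protein-coding genes had a summit, and 80.4% of the 19342 genes whose windows were as long as those of the members, so the count of members lay near the background. A member window held a median of 3 summits, the same as the windows of like length. Density was 5.26 summits per 100 kb over the members. It was 5.02 over the windows of all protein-coding genes, counted per gene. Over genes with windows of like length, meaning anywhere from 40.001 to 127 kb, it was 6.35. Dgat2 had 7 summits, more than 84.9% of those genes, and Cd36, Dgat1 and Mogat2 had 4 each.

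**Figure D1:**
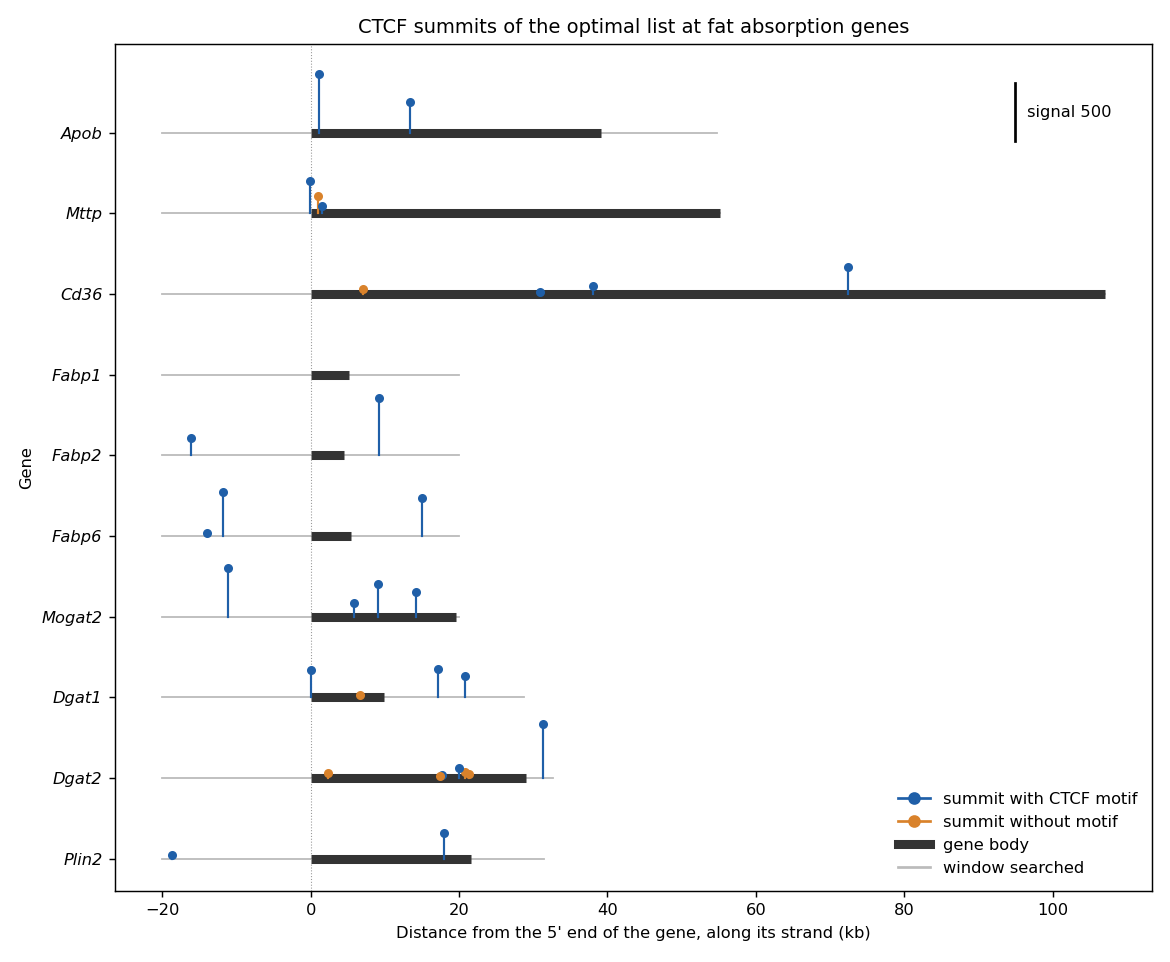
Each row is a gene drawn along its own strand from its 5' end (x axis, kb), with the gene body as a thick bar and the searched window as a thin line; the height of each pin is the signal of an optimal CTCF summit, on the scale of the bar at the top right. Tall pins stand near the start of Apob, beside Fabp2 and beyond the 3' end of Dgat2, Dgat2 and Cd36 also carry small pins inside the gene, and Fabp1 has no pin.

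The strongest summit of each of the 9 genes lay on a CTCF motif, scored with a 19-base matrix trained on these data within 100 bases of the summit on both strands. The 9 of 9 became 7 at a stricter motif threshold. By the same measure 86.3% of all protein-coding genes with a summit had a motif at their strongest one. The motif sequences are shown to let the bound site at each gene be read and compared. Each is read 5′ to 3′ on the strand named, from the GRCm38.p6 sequence (the mm10 chromosomes), with the 19 motif bases in capitals, and the sequence of Dgat2 follows in the account of that gene.
Apob, chr12:7978719-7978759, minus strand: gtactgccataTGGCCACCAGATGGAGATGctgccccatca
Mttp, chr3:138145085-138145125, minus strand: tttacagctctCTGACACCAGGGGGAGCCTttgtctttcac
Fabp2, chr3:122904259-122904299, minus strand: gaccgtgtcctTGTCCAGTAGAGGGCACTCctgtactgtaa
Fabp6, chr11:43613274-43613314, minus strand: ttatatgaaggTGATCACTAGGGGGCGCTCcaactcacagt
Cd36, chr5:17816353-17816393, plus strand: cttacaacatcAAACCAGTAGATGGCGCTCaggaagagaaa
Mogat2, chr7:99249718-99249758, minus strand: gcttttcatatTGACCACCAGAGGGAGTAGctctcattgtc
Dgat1, chr15:76494706-76494746, minus strand: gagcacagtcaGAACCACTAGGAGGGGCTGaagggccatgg
Plin2, chr4:86652050-86652090, plus strand: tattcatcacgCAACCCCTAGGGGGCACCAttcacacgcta

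Apob, which encodes the structural protein around which each chylomicron is built (chr12:7977648-8016835, plus strand), had the strongest summit of all 10 genes. It lay in an intron 0.948 kb downstream of the nearest TSS, with an optimal signal of 512, above 98.3% of the optimal peaks. Replicate 1 gave this Apob peak a signal of 251 (rank 1430) and replicate 2 a signal of 263 (rank 1211). A further Apob summit, also intronic, lay 13.2 kb downstream with an optimal signal of 264, at rank 14672 in replicate 1 and 15681 in replicate 2. The motif near the start is on the minus strand and the inner one on the plus strand, so the pair point away from each other. Apob stands alone, with 2602 kb to the coding gene on its left, Klhl29, and 191 kb to Ldah, a lipid droplet hydrolase, on its right.

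Mttp, the microsomal protein that transfers lipid to nascent Apob (chr3:138089854-138144968, minus strand), had 3 summits, all within 1 kb of a TSS. The strongest, with an optimal signal of 285, lay 0.129 kb upstream of a TSS. It had a signal of 135 (rank 14368) in replicate 1 and 151 (rank 12981) in replicate 2. The middle one had an optimal signal of 153, ranked 24449 and 24382, and held no motif: its best site scored 5.35 against a threshold of 9.56. It lay at -0.599 kb from the nearest Mttp TSS (upstream is negative) and 0.077 kb from a TSS of Trmt10a, a tRNA methyltransferase gene on the plus strand whose body overlaps the start of Mttp. The weakest, with a signal of 63.7 and ranks of 42488 and 38289, lay 0.01 kb upstream of an inner TSS of Mttp, over a masked repeat. Which of the overlapping promoters a summit belongs to cannot be told from its position.

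Cd36, the fatty acid translocase (chr5:17781690-17888801, minus strand), is the longest of the genes and had 4 summits, all inside the gene body and mostly weak. One intronic summit, 19.3 kb downstream of the nearest TSS, had an optimal signal of 231, with 106 (rank 18828) in replicate 1 and 124 (rank 16832) in replicate 2. The other signals were 71.6, 41.1 and 14.5, all below the median of the optimal list, which was 76.0. The weakest ranked 108681 and 90168, beyond the strongest 73465 peaks of either replicate, and was not in the conservative IDR list. No Cd36 summit lay upstream of the gene, and the one nearest to a TSS, of signal 71.6, was 1 kb upstream of an inner start.

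The 3 fatty acid binding protein genes had no optimal summit inside their bodies, which are 4.435 to 5.492 kb long. This is the common state, found in 71% of the 975 protein-coding genes of such lengths. Fabp2, the intestinal form (chr3:122895072-122899506, plus strand), had 2 summits, both in the antisense gene 4933405D12Rik that covers it. The downstream one, 9.202 kb from the TSS, had an optimal signal of 499, with 242 (rank 1962) in replicate 1 and 257 (rank 1482) in replicate 2. The upstream one, at 16.2 kb, had a signal of 149.8 and ranked 26667 and 23541. Both motifs were on the minus strand.

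Fabp6, the ileal protein that binds bile acids (chr11:43596049-43601540, minus strand), had 3 summits. The strongest, 11.7 kb upstream, was intergenic with an optimal signal of 381. Replicate 1 gave it 193 (rank 6554) and replicate 2 gave it 188 (rank 7901). The next, with a signal of 328 (ranks 11440 and 10300), lay 15.0 kb downstream of the TSS in the gene Ccnjl and 0.511 kb from a TSS of 4933415A04Rik. The weakest, with a signal of 21.6 (ranks 76411 and 63154), lay over a processed pseudogene at -14.0 kb. Both strong summits thus lay outside the gene, 1 on each side.

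Fabp1, the liver-type form that is also abundant in the small intestine (chr6:71199827-71205023, plus strand), lay in a stretch of 76.5 kb without an optimal summit. The summit on its left, 32.9 kb away, was intergenic with a signal of 355 (ranks 8323 and 9366), and the one on its right, 38.4 kb away, was weak, with a signal of 17.7 (ranks 80076 and 91098). Of the gaps between neighbouring optimal summits, 90.7% were shorter, with a median of 12.05 kb. Such a distance is not rare for a gene: in 14.5% of protein-coding genes the nearest summit was at least as far from a TSS. In the unthresholded lists the window of Fabp1 held 9 peaks of replicate 1, of which the best ranked 103029, and 4 peaks of replicate 2, of which the best ranked 203912. Both lay beyond the strongest 73465 peaks. The pooled list's best peak in the window had a signal of 6.02, where that list ends at 4.48.

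**Figure D2:**
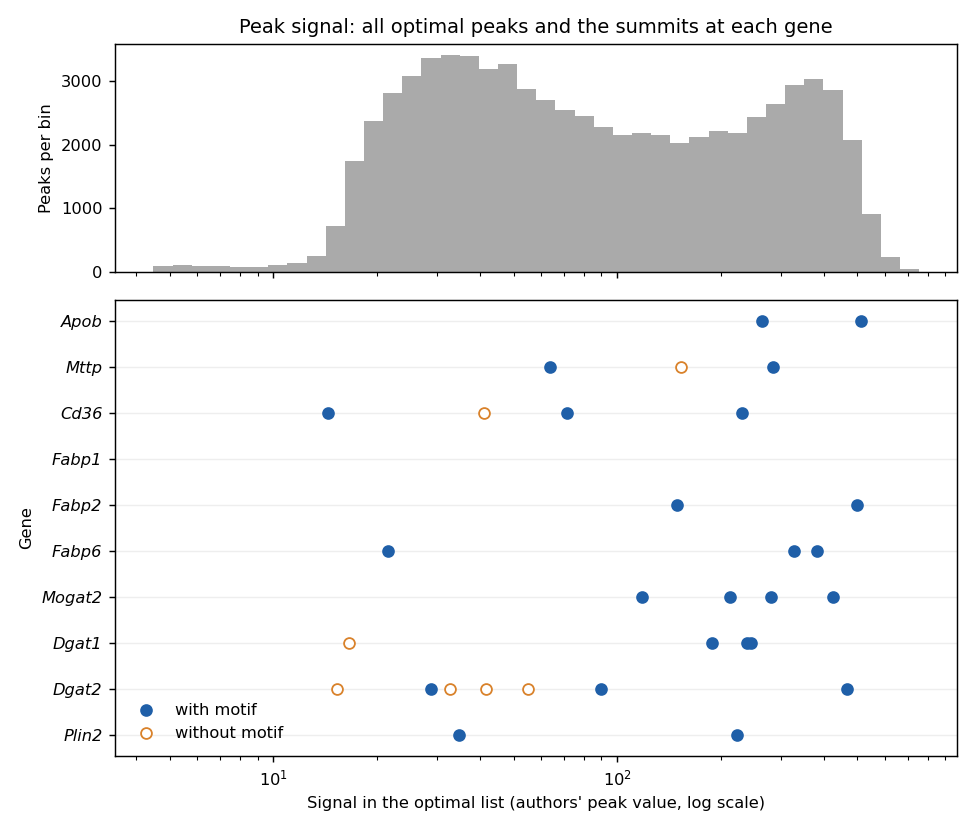
The upper panel counts all optimal peaks by signal (x axis, log scale), and the lower panel places each summit of a gene on the same axis, filled where it holds a CTCF motif and open where it does not. Apob, Fabp2, Fabp6, Mogat2 and Dgat2 each have a summit of signal 381 to 512 under the right-hand mode of the histogram, and the open points all lie at or below 153.

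Mogat2, the acyltransferase that turns monoacylglycerol to diacylglycerol in the main intestinal route (chr7:99219084-99238619, minus strand), had 4 summits and each held a motif. The strongest was upstream, 11.1 kb from the nearest TSS, with an optimal signal of 424. Replicate 1 gave it 211 (rank 4504) and replicate 2 gave it 215 (rank 4874), and the nearest TSS of any gene, 0.915 kb away, was that of a pseudogene. The 3 intronic summits, 5.83, 9.03 and 14.2 kb downstream of a TSS, had signals of 118, 279.8 and 213. Their ranks ran from 13515 to 28245 in replicate 1 and from 14579 to 29895 in replicate 2. No Mogat2 summit lay within 5 kb of a start of the gene.

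Dgat1, which catalyses the last step of triglyceride synthesis at the endoplasmic reticulum (chr15:76502015-76511953, minus strand), had 4 summits in a crowded stretch where Hsf1, the heat shock factor gene, ends 0.101 kb away. Of its 2 summits within 1 kb of a TSS, the stronger lay 0.047 kb downstream of a TSS in the 5′ untranslated region, with an optimal signal of 238. It had 129 (rank 15289) in replicate 1 and 110.4 (rank 18898) in replicate 2. Its motif is the GC-rich tacggAGGCCGGCAGGGGGCGGCGgcgga (chr15:76511877-76511905, minus strand). The strongest Dgat1 summit, signal 245, ranked 15797 and 17393, and the one of signal 189 ranked 21149 and 21916. Both lay in introns of Hsf1, at 8.46 and 12.1 kb from the nearest Dgat1 TSS, and both were nearer to a TSS of Hsf1, at 3.29 and 6.91 kb. The other summit close to a TSS, 0.072 kb upstream of the start of a retained-intron transcript inside the gene, had a signal of 16.6, no motif and ranks of 75378 and 102742, and it was absent from the conservative list.

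Dgat2, the second enzyme of that last step, tied to lipid droplets (chr7:99153658-99182719, minus strand), had 7 summits, of which 2 were above the median signal. The strongest lay 2.22 kb beyond the 3′ end of the gene, between Dgat2 and Uvrag, an autophagy gene, with an optimal signal of 467, a signal of 228 (rank 3012) in replicate 1 and of 243 (rank 2312) in replicate 2. It fell in the window through an inner TSS of a retained-intron transcript, 18.7 kb away: with TSSs of protein-coding transcripts only, or within 10 kb of a TSS, Dgat2 had 6 summits and its strongest signal was 89.6. The peak was 563 bases wide, wider than 99.9% of the optimal peaks. Inside it stood 4 CTCF motifs in a row, all on the minus strand.
Dgat2, chr7:99151396-99151640, minus strand: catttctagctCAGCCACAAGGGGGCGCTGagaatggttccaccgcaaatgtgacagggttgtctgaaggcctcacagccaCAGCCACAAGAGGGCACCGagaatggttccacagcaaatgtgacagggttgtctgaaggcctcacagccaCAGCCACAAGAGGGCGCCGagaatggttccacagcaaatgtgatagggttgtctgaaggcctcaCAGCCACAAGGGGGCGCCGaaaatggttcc
The capitals mark the 4 sites, which begin 64, 70 and 70 bases apart on the chromosome and differ from each other at 1 to 3 of their 19 positions. The bases between the sites repeat as well. Of all optimal peaks 3.98% held 2 or more such sites and 0.0626% (46 peaks) held 4 or more. Among the 85 peaks at least this wide, 8.24% held 4 or more. The array was noticed in these values and then counted.

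The 6 other Dgat2 summits were intronic, with signals of 15.3 to 89.6, and 1 of them lay 0.027 kb upstream of an inner TSS (signal 41.4, ranks 55564 and 47426). A pair of them, 4.86 and 5.06 kb downstream of a TSS and with overlapping intervals, had a replicate summit within 100 bases in 1 replicate each. These were the only summits of the 31 not matched in both replicates.

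Dgat2 and Mogat2 are neighbours that share a strand, 36.4 kb apart. Between the gene bodies lay 2 optimal summits, both weak (signals 43.6 and 18.1) and without a motif, in the antisense gene Gm45012 and outside both windows. From the summit at the inner TSS of Dgat2 to the nearer of these, 34.5 kb were free of optimal summits. The stretch holding both genes was thus edged by the Dgat2 array on the left and by the summit upstream of Mogat2 on the right, with signals of 467 and 424, and both edges had their motifs on the minus strand.

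Plin2, the coat protein of lipid droplets (chr4:86648386-86670060, minus strand), had 2 optimal summits. The intronic one, 6.55 kb downstream of a TSS, had a signal of 223, with 101 (rank 19669) in replicate 1 and 124 (rank 16807) in replicate 2, and its peak held 2 motif sites. The other, 18.7 kb upstream, had a signal of 34.7 and ranks of 56236 and 57409. Plin2 was also the only gene at which the conservative list held summits with no optimal summit within 100 bases. There were 2 of them, 0.495 kb downstream of a TSS (signal 25.0, with a motif) and at -19.6 kb (signal 24.1, without), and both had a match in each replicate.

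Summits nearest to the 20 kb limit were those at Plin2 and Dgat2, 1306 and 1331 bases inside it with signals of 34.7 and 467. Just outside lay a weak one at Mttp (368 bases beyond the edge, signal 24.6) and, at Dgat1, a weak one (1439 bases, signal 20.3) and a strong one (2220 bases, signal 468).

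The optimal list was itself derived from these replicates, so what follows describes the summits and is no check of them. Of the 31 summits 29 had a summit within 100 bases in both replicate lists, against 97.4% of all optimal summits, and 26 were among the strongest 73465 peaks of both, against 83.8%. The larger of the ranks was a median of 1.12 times and at most 1.44 times the smaller, where the median over all matched optimal summits was 1.13, with 15 summits ranked higher in replicate 1 and 14 in replicate 2. Across these 29 sites, which share libraries, Spearman's rho of the ranks was 0.982, as a description. Conservative summits lay within 100 bases of 28 of the 31, a count given here without its share over all optimal summits.

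**Figure D3:**
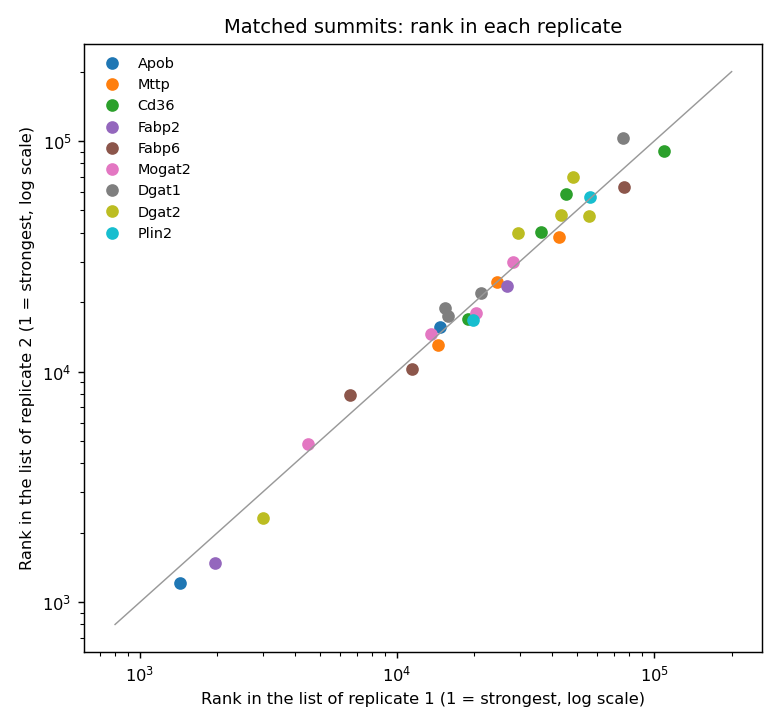
Each point is 1 of the 29 matched summits, placed by its rank in the list of replicate 1 (x axis) and of replicate 2 (y axis), both on log scales, with the line of equal ranks. The points follow the line from the Apob peak at ranks 1430 and 1211 to the weakest Cd36 peak at ranks 108681 and 90168.

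A motif lay under 24 of the 31 summits, against 72.9% of all optimal summits on odd-numbered chromosomes and X, which the matrix was not trained on, and 4.72% of windows 1 kb to the side of these. Of the 19 member summits above the median signal 18 held a motif, and of the 12 at or below it 6 did; over the odd-numbered chromosomes and X the shares were 86.1% and 59.7%. The exception among the strong ones was the Mttp summit beside Trmt10a. Median signal was 227 with a motif and 41.1 without, and over the odd-numbered chromosomes and X it was 110.4 and 39.4. The motifs matched 10 to 13 of the 13 positions of the seed, with a median of 9.5 bases between motif centre and summit. Relative to the genes, 13 were on the strand of the gene and 11 on the other, and no 19-base site occurred at more than 1 summit.

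Of the 31 member summits 6 lay over repeats that the genome sequence marks as masked, against 21.6% of all optimal summits. Of the 24 member summits with a motif 5 did, against 26.7% of all optimal summits with one. In 4 of these 5 the motif opened with the same 11 bases, AGGCCAGAAGA. They are shown to let the copies be compared, again with the 19 motif bases in capitals.
Fabp6, chr11:43615503-43615543, plus strand: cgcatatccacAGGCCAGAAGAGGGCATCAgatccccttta
Dgat1, chr15:76491055-76491095, plus strand: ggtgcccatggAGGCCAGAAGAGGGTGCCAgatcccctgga
Dgat2, chr7:99162645-99162685, plus strand: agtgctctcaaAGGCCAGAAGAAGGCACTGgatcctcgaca
Plin2, chr4:86688727-86688767, minus strand: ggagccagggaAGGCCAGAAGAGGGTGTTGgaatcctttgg
Over the whole optimal list 23.3% of motif-bearing summits in masked sequence opened with these 11 bases and 1.1% of those outside it. Short interspersed elements of the B2 family are known to have carried CTCF motifs through the rodent genome, but repeat names were not used here, so the family of these copies was not established. Signals at the 4 were 21.6, 189, 89.6 and 34.7, and over the list the median was 56.7 for motif-bearing summits that open this way and 119 for the others. The word was picked after the member sequences had been seen.

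Most summits were in introns or at promoters. By any annotated gene 17 of the 31 were intronic, 11 lay within 1 kb of a TSS and 3 were intergenic, and the shares over all optimal summits were 40.5%, 21.7% and 32.7%. Windows drawn around genes hold more genic sequence than the genome does, so these shares are not like for like. A summit within 1 kb of a TSS of the gene itself was found at 5 of the 10 genes, Apob, Mttp, Cd36, Dgat1 and Dgat2, against 45.7% of protein-coding genes. At Cd36 it lay at the 1 kb limit from an inner TSS. At Dgat2 it also lay at an inner TSS, with a signal of 41.4 and no motif. Of the 11 promoter summits some belong to neighbours, as at Fabp6 and Mogat2, where the nearby TSS was of 4933415A04Rik or of a pseudogene.

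CTCF motifs that face each other are known to mark the ends of many chromatin loops, so the nearest motif-bearing summit on each side of each gene body was read for its strand. Mogat2 and Plin2 had the convergent order, with the left motif on the plus strand and the right one on the minus strand. This is 2 of 10, against 28.1% of protein-coding genes. Cd36, Dgat1 and Dgat2 had the divergent order and the other 5 had both motifs on 1 strand. Over protein-coding genes the divergent order made up 24.04%. Both motifs were on the plus strand in 23.42% of them and on the minus strand in 24.48%. Fabp2 and Fabp6 sat in the narrowest intervals, of 25.4 and 26.8 kb, and in both the motifs were on the minus strand. Cd36 and Apob sat in the widest, of 162 and 154 kb, where the median over coding genes, not matched for gene length, was 81.7 kb. Each interval includes the gene body, which is 107 kb long at Cd36 and 39.2 kb at Apob. These intervals are not free of summits: that of Cd36 held 4 other optimal summits and that of Apob 3. At the stricter motif threshold Dgat1 was convergent, Plin2 was not, and both motifs of Mttp were on the plus strand. With a matrix of the better-scoring training sites Cd36 and Dgat1 had both motifs on 1 strand. Several of these orders also rest on weak peaks. The left flank of Mogat2 was the intronic Dgat2 peak of signal 28.8 that had no match in replicate 1. Both flanks of Plin2 were weak, with signals of 32.8 and 34.7. The right flank of Fabp1 (17.7) and the left flank of Mttp (21.1) were weaker still, and the right flank of Cd36 had a signal of 32.2. Among peaks above the median signal Mttp and Fabp1 were convergent too, which made 4. The same 4 genes were convergent among the strongest peaks of replicate 2 alone, as many as the optimal list holds. Fabp1, but not Mttp, was also convergent in the conservative list and in the like list of replicate 1, which made 3 in each. Of these peak lists only the optimal one gave Fabp1 both motifs on 1 strand and as few as 2 convergent genes. The share of 28.1% and those of the other orders belong to the full optimal list. No share over all protein-coding genes is given for the other lists, so their counts have no background here. No contact data were used here, so whether any of these pairs form a loop was not measured.

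**Figure D4:**
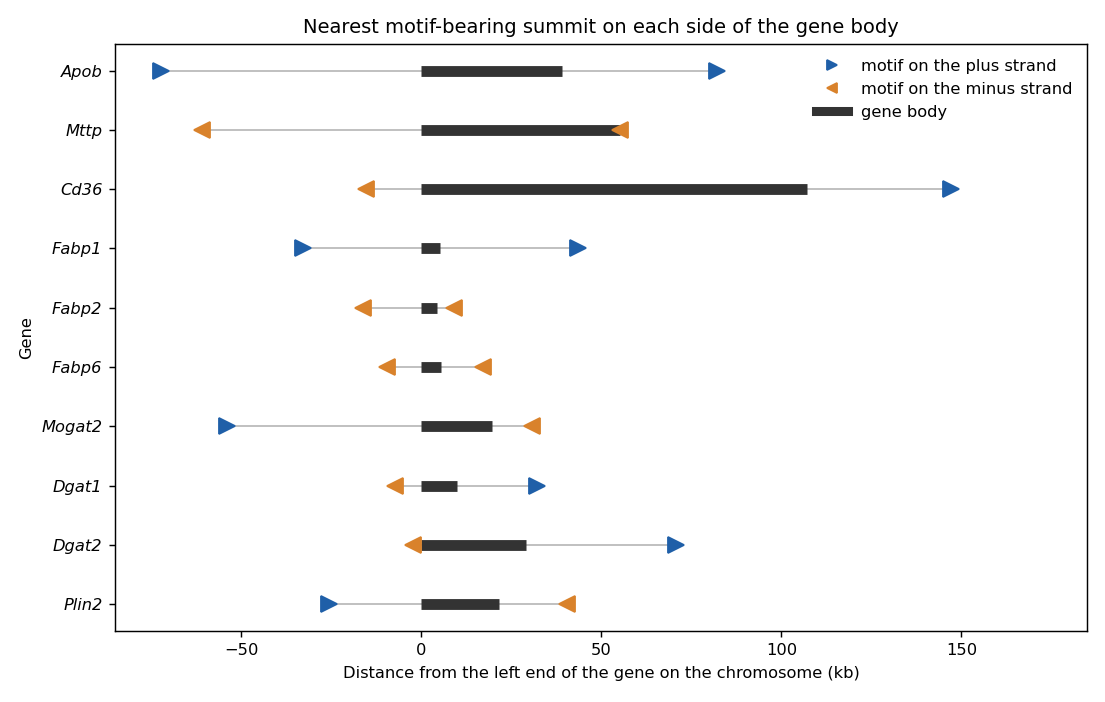
Each row shows a gene body as a bar, in chromosome orientation from its left end (x axis, kb), with the nearest motif-bearing optimal summit on each side as an arrowhead that points the way the motif reads. Arrowheads face each other at Mogat2 and Plin2, point away from each other at Cd36, Dgat1 and Dgat2, and point the same way at the other 5 genes.

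In the wider pathway, 35 of 36 genes of fatty acid activation, triglyceride synthesis, vesicle transport, sterol uptake, lipoproteins and lipid droplets had an optimal summit by the same rule, against 82.3% of all protein-coding genes, with a median of 5 per window against 3. The strongest summits were at Cideb, a droplet protein that acts in lipoprotein lipidation (signal 550.4), at Ppara, the nuclear receptor for fatty acids (484), and at Scarb1, a lipoprotein and lipid receptor (483). The Cideb summit lay 14.5 kb downstream of its nearest TSS, beyond the 3′ end of the gene. The Scarb1 summit lay 15.9 kb downstream and the Ppara summit at -18.8 kb. Fabp4, the adipocyte form of the fatty acid binding proteins, was the gene without a summit, with the nearest 31.5 kb from its TSS. Neighbours in the list share summits, as Apoa1, Apoa4 and Apoc3 do one of signal 433, so the 36 are not independent. A summit within 1 kb of an own TSS was found at 26 of the 36, against 45.7% of all protein-coding genes. These backgrounds were not matched for window length, which reached 159 kb in the pathway list, or for the number of TSSs. The list was also written with earlier results of these data known, so an excess in the pathway was not tested. The median of the strongest signals was 375 over the bound pathway genes, 381 over the 9 bound members and 328 over all bound protein-coding genes.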

How the data were processed

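CTCF ChIP-seq peak lists of 2 replicates of newborn mouse intestine, of the pooled reads and of 2 IDR-thresholded lists were used. Per the file descriptions deposited with the data, each replicate list came from that replicate's alignments and a further file, and the IDR lists from the replicate and pooled lists, all on mm10. The signal of each peak is the enrichment value the authors deposited, with a scale that is not stated. The summit offset within the peak was also deposited. For the aligner, peak caller, their versions and the IDR threshold, nothing was given in the sources used. Control reads were not analysed here.

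From these, summits (interval start plus offset, printed from base 1) were assigned to GENCODE M21 genes on chromosomes 1 to 19 and X. No peak ended beyond a chromosome of the GRCm38.p6 sequence. A promoter is 1 kb around any TSS. A 19-base matrix was trained from a 13-base CTCF core consensus, padded by 3 bases on each side, in 6 rounds with a pseudocount of 1, on the 5000 strongest optimal peaks of even-numbered chromosomes, leaving out peaks in the gene bodies of the members or within 50 kb of their TSSs. The threshold of 9.56 was reached by 5% of training windows 1 kb to the side. A replicate match is a summit within 100 bases. No test was run, since there is 1 group and the members were few. The members, the pathway list and the rules were chosen with earlier results of these data known. Named genes are all members with their neighbours, the 3 pathway genes with the strongest summits and those without one. The genes around a summit, Fabp1's gap, the Dgat2 array, the shared 11 bases and Apoa1, Apoa4 and Apoc3 were picked after values were seen. Functions were tested on simulated data. Python 3.11.15, numpy 2.4.6, scipy 1.17.1 and matplotlib 3.10.9 were used.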

Additional observations from a re-analysis of the deposited data

How the results depend on the processing

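Of 70 values recomputed for the member counts, the background share and the pathway list, 56 stayed within a set band and 14 did not. The band was 1.5 times of the reported count, or the 95% Wilson interval of the background share (81.8% to 82.8%). Every protein-coding gene was counted, so that interval is only a fixed band. Counts near their ceiling, such as 9 of 10 member genes or 35 of 36 pathway genes, could not rise by 1.5 times. Changes from 9 to 7 genes with a summit, or from 2 to 3 convergent genes, counted as within the band, so the tally is lenient. Among peaks above the median signal there were 19 summits in the member windows, 19 of them matched in both replicates, 4 genes with convergent motifs, and 72.4% of protein-coding genes with a summit. With 10 kb around a TSS that share was 76.6% and 8 member genes had a summit, Fabp6 losing all of its own. With 50 kb there were 74 summits, 51 with a motif and 71 matched, all 10 genes had a summit, and the share was 88.7%. With 2 kb 7 genes had a summit (Fabp2 and Fabp6 had none), 14 summits held a motif, 19 were matched, and the share was 66.8%. At a motif threshold reached by 1% of flanking windows 15 member summits held a motif, and 7 genes had one at their strongest summit. Leaving out each replicate in turn, by taking the strongest 73465 peaks of the other, gave 3 to 4 genes with convergent motifs, 4 of them without replicate 1. The convergent counts in this section have no recomputed share of protein-coding genes beside them. In both of the replicate lists 9 genes had a summit and 9 had a motif at the strongest. With a matrix of the better-scoring 50% of training sites 8 did. No paired analysis was possible because there is 1 group. Depth is unknown from the files, and weak summits are the ones that move between lists.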
